A study of Caenorhabditis elegans with 2 samples.

Results

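The regions described are promoter binding sites of ELT-3 that carry a GATA motif, mapped by chromatin immunoprecipitation and sequencing (ChIP-seq) in Caenorhabditis elegans. A region was counted when it was a peak of the authors' thresholded list in build ce11, when its summit lay between 1000 bp upstream and 250 bp downstream of the start of a protein-coding transcript, and when the motif WGATAR lay wholly within 50 bp of that summit on either strand. WGATAR stands for 4 forms, with GATA after A or T and before A or G, such as TGATAA. Of 1262 thresholded peaks, 622 had a promoter summit, and 280 of these held the motif. The other 342, called promoter peaks without WGATAR, are the set they are compared with. Without refers only to the 50 bp around the summit. Some of the 342 held the motif farther out, since 380 of the 622 had it within 100 bp. The rule used position and sequence and, through the authors' threshold, strength.

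The material was a single group of whole L1 larvae, the first larval stage, with the sexes pooled and their age unknown. The strain was OP75, which carries the mutation unc-119(ed3) on chromosome III and the integrated transgene wgIs75, and produces ELT-3 fused to GFP and FLAG at its C terminus. All larvae carried both alleles, 2 biological replicates were sequenced, and the labels give no second condition. The antibody is labelled elt-3, and whether it bound ELT-3 itself or the tag is unclear. The transgene adds copies of the elt-3 locus, and 1 of the 280 peaks lay within 50 kb of elt-3. The lists report the strength of each peak as a signal in the authors' unit, whose scale is not stated, and give no read depth. Intervals below are 95% Wilson intervals and account for counting error alone.

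GATA factors are zinc finger proteins that bind DNA at a short core of the letters GATA. ELT-3 is the GATA factor of the worm's main epidermis, the syncytial layer that secretes the cuticle, stores nutrients and answers wounding, infection and osmotic stress. It acts below the epidermal GATA factor ELT-1, and other GATA factors that read very similar letters work in the intestine and the seam. Whole larvae were used, so binding in different tissues cannot be told apart.

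The sequences below show how the motif sat in 10 of the peaks. They are among the strongest peaks of chromosomes II to V and X whose stretch lay upstream of the start and outside annotated exons, with that of elt-3 itself and 2 shorter stretches from oatr-1 and from nlp-31 and nlp-34. All are written on the plus strand of the RefSeq genome of build ce11 (WBcel235), and capitals mark WGATAR, so that TTATCA is TGATAA on the minus strand.
nhr-80 and H10E21.1, chrIII:15393-15493: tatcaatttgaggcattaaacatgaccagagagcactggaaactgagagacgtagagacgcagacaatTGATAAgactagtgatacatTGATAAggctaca
oatr-1, chrIII:6396717-6396746: gtttcaacgaaaTGATAAtaaagacaaaaa
mthf-1, chrII:7776874-7776974: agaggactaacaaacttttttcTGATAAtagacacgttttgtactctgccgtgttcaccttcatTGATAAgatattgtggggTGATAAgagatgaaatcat
Y105C5B.9, chrIV:15930014-15930114: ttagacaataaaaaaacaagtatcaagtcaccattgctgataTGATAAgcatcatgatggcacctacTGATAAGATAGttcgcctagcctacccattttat
nlp-31 and nlp-34, chrV:3979998-3980027: ccgcgtcTGATAAGATAGtgtgttggagtg
dpyd-1, upstream peak, chrX:5467462-5467562: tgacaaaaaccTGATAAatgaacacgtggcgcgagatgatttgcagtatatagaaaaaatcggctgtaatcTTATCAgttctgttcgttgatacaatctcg
paqr-1, chrIV:6555048-6555148: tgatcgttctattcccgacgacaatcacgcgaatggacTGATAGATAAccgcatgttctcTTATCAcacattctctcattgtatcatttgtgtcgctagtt
F16G10.14, chrII:2399897-2399997: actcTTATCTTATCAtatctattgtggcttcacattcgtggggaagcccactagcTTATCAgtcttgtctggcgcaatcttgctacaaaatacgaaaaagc
spp-31, chrIV:1405933-1406033: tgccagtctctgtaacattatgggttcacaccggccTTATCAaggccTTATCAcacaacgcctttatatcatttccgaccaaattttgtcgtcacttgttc
elt-3, chrX:13939509-13939609: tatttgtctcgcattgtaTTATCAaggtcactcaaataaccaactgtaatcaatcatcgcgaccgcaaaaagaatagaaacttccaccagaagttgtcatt

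The nhr-80 stretch held TGATAAG at both motifs, 20 bp apart and on the same strand. In mthf-1, 2 of the 3 motifs read TGATAAG. In Y105C5B.9 and in the nlp-31 and nlp-34 peak a TGATAA ran straight into an AGATAG that shares its last base. The upstream dpyd-1 peak had 1 motif on each strand, and the elt-3 peak had a single TGATAA on the minus strand, 29.5 bp from the summit.

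The 3 strongest peaks lay in the start windows of dhp-1, of nhr-80 with H10E21.1, and of oatr-1. The peak of dhp-1, which encodes the dihydropyrimidinase of uracil and thymine breakdown, had a signal of 205.3 in the pooled list, 119.1 in replicate 1 and 85.5 in replicate 2, and its summit was 51 bp downstream of the start. The peak shared by nhr-80, a nuclear hormone receptor that acts on fatty acid desaturation, and the neighbouring H10E21.1 had 205.1 in the pooled list, 119.5 in replicate 1 and 81.2 in replicate 2. Its summit was 329 bp upstream of the nearest start, which was that of H10E21.1. The peak of oatr-1, the ornithine aminotransferase gene, had 171.3 in the pooled list, 107.7 in replicate 1 and 63.7 in replicate 2, with its summit 503 bp upstream. All 3 stood far above the median of the 280 peaks, which was 56.2 (lowest 43.0, highest 205.3).

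The next peaks were those of gana-1, an alpha-galactosidase and alpha-N-acetylgalactosaminidase gene, with a pooled signal of 151.9, and of dpyd-1, the dihydropyrimidine dehydrogenase that acts one step before dhp-1, with 142.4 and a summit 191 bp downstream of the start. A second dpyd-1 peak, 549 bp away and upstream, had 109.3. The peak of mthf-1, the methylenetetrahydrofolate reductase gene, had 133.1, that of cdo-1, the cysteine dioxygenase gene, had 132.6, and that of acs-13, an acyl-CoA synthetase gene, had 126.7. The peak shared by nlp-31 and nlp-34, antimicrobial peptide genes induced in the epidermis by fungal infection and wounding, had 122.9. The remaining peaks among the 20 strongest belonged to D2030.2 (136.9), F26A3.4 (136.6), Y105C5B.9, Y41C4A.12, R04B5.5, F16G10.14, hgo-1 (homogentisate dioxygenase, of tyrosine breakdown, with spe-46 in the same window), paqr-1 (a homologue of the adiponectin receptors), spp-31 (a saposin-like protein) and a second nhr-80 peak. The weakest 3 were those of nekl-2, a NIMA-family kinase required for moulting, let-607 and T14B1.1, at 43.1, 43.1 and 43.0.

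**Figure D1:**
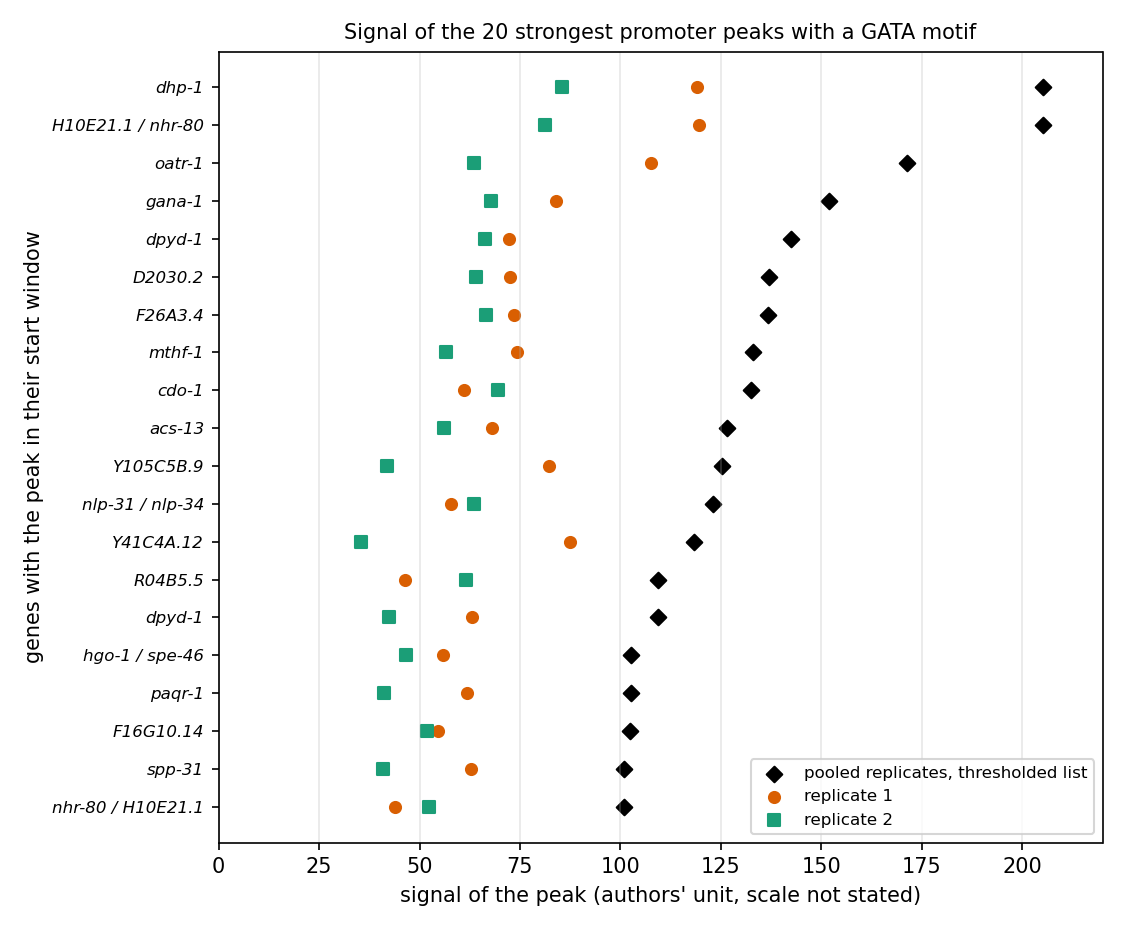
Signal of the 20 strongest promoter peaks with a GATA motif, 1 row per peak, with the pooled value as diamonds, replicate 1 as circles and replicate 2 as squares. The peaks of dhp-1 and of nhr-80 with H10E21.1 stand apart at 205.3 and 205.1 in the pooled list, and the order within replicate 2 differs from that in replicate 1.

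Replicates were compared by rank, because the signal scales of separately made lists may differ. A peak was called strong in both when it overlapped, by at least 1 bp, one of the 1262 strongest of the 25325 peaks listed for replicate 1 and one of the 1262 strongest of the 26500 listed for replicate 2. This held for 155 of the 280 peaks with WGATAR (55.4%, 49.5 to 61.1) and for 186 of the 342 without (54.4%, 49.1 to 59.6), beside 58.4% of all thresholded peaks. The 2 kinds of promoter peak thus had almost the same share. Another 59 peaks with WGATAR were among the strongest of replicate 1 alone, 52 of replicate 2 alone and 14 of neither. All 20 of the strongest were strong in both, with ranks of 243 or better in replicate 1 and 315 or better in replicate 2. Of the 140 stronger peaks with WGATAR 90.7% were strong in both, and of the 140 weaker ones 28 were (20%). The pooled signal is made from both replicates, so ordering by it favours peaks strong in both by construction. The counts by strength are therefore no measure of reproducibility. The kept peaks were also those with the highest pooled signal, the lowest at 42.891 against at most 42.8761 for the peaks left out. These counts are thus a description of the deposited set.

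Across the 276 peaks with WGATAR that overlapped a peak of each replicate, Spearman's rho between the replicates' signals was 0.29, and it was 0.29 across 339 promoter peaks without WGATAR. These peaks share their libraries and were kept by a pooled signal that combines both replicates. The values are given as a description and do not measure how well the replicates agree over their whole lists. The largest gaps were at F08F3.4, ranked 340 in replicate 1 and 24801 in replicate 2, at pmt-2, a phosphoethanolamine methyltransferase gene, ranked 466 in replicate 1 and 16620 in replicate 2, and at CC8.2, ranked 15660 in replicate 1 and 355 in replicate 2. All 3 had pooled signals below the median of 56.2, at 50.2, 44.8 and 43.9. Those of pmt-2 and CC8.2 were also below the lower quartile of 47.5, and that of F08F3.4 was above it. A strong pooled peak could also rest on 1 library. That of srlf-7, chosen here after its values were seen, had a pooled signal of 96.0 and ranked 59 in replicate 1 and 3861 in replicate 2.

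**Figure D2:**
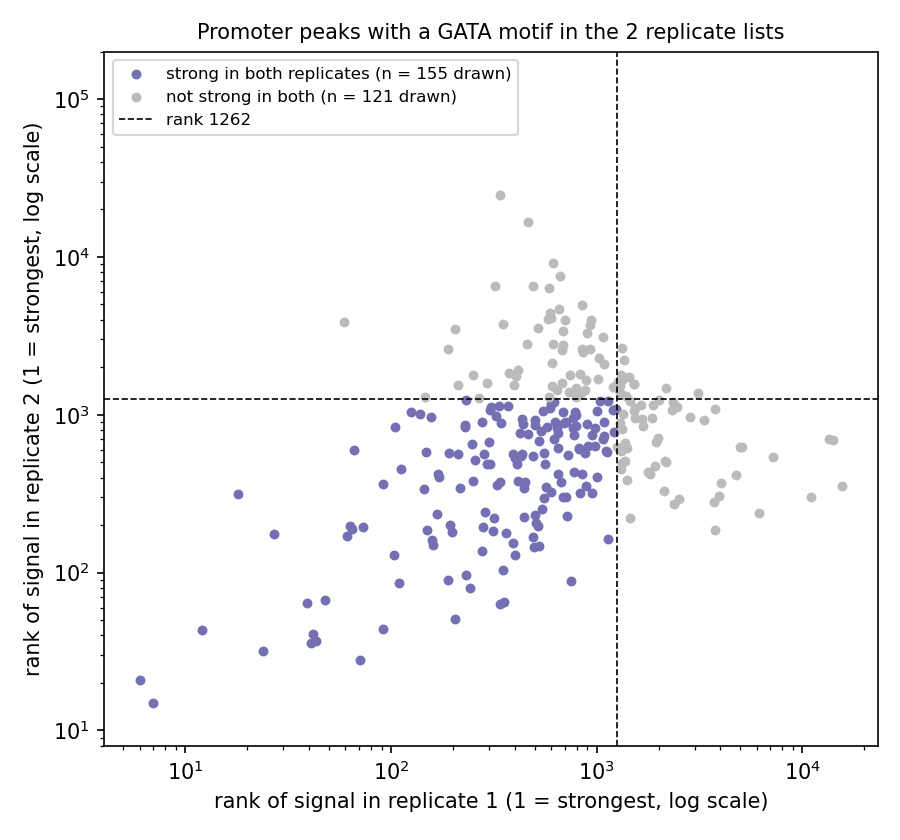
Rank of the signal in replicate 1 against replicate 2, both on log scales, for the 276 promoter peaks with a GATA motif that overlapped a peak in each list. Dashed lines mark rank 1262. The 155 peaks strong in both fill the lower left, and F08F3.4 and pmt-2 lie at the top, weak in replicate 2.

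Within the thresholded promoter set, peaks with and without the motif had similar signals. The pooled signal had a median of 56.2 (quartiles 47.5 and 73) with WGATAR and 54.9 (quartiles 47.9 and 68.9) without. In replicate 1 the median rank was 623 with WGATAR and 781 without, and in replicate 2 it was 709 with WGATAR and 643 without. The replicates thus ordered the 2 kinds in opposite ways. As percentiles of each list, the difference of the medians, with minus without, was -0.62 in replicate 1 and 0.25 in replicate 2, a mean of -0.19 ± 0.62 percentage points (SD, n = 2). An exact two-sided sign-flip permutation test over the 2 replicates gave p = 1, where 0.5 is the smallest value that 2 replicates allow. The sign of the mean turned to 0.17 when the motif was sought within 100 bp and to 0.0033 in the stronger part of the list.

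A contrast appeared at the authors' threshold. The pooled list before thresholding held 785 promoter peaks with WGATAR, of which 280 were kept (35.7%, 32.4 to 39.1), and 1454 without, of which 342 were kept (23.5%, 21.4 to 25.8), beside 22.3% of all pooled peaks. Non-promoter peaks showed the same contrast, with 31.6% kept of those with WGATAR and 12.4% of those without. Kept peaks were the strongest of the pooled list, so the share with the motif was followed along strength. Divided into 8 equal groups of pooled signal, promoter peaks held the motif in 46.4%, 42.5%, 39.6%, 43.2%, 32.1%, 29.3%, 23.6% and 23.7% of cases from the strongest group to the weakest. The weakest groups stood near the 21.1% of all promoter sequence cut into windows of the same length. Taken from each replicate's own 1262 strongest peaks, the share of promoter peaks with WGATAR was 44% in replicate 1 and 43.8% in replicate 2 (43.9% ± 0.143, SD, n = 2).

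The motif was densest around the summits and fell off with distance. Without selecting for the motif, the 622 thresholded promoter peaks had 7.30 motifs per kb within 50 bp of the summit and 2.55 per kb beyond 290 bp, a ratio of 2.86. In the bins 80 bp to the left and right of the summit these peaks still had 5.47 and 5.63 per kb. For 1617 weaker promoter peaks of the pooled list the values were 4.38 and 2.56 motifs per kb, a ratio of 1.71. The rise at the summit was not particular to promoters. The 640 thresholded non-promoter peaks had 9.48 motifs per kb within 50 bp and 2.85 beyond 290 bp, a ratio of 3.33. WGATAR was within 50 bp of the summit in 55.3% of these non-promoter peaks, against 45.0% of the promoter peaks. All promoter windows had 2.44 motifs per kb. In windows centred 500 bp to the left and to the right of the 280 peaks, 60 (21.4%) and 47 (16.8%) held WGATAR. The neighbourhood of these peaks thus held the motif about as often as promoters in general.

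**Figure D3:**
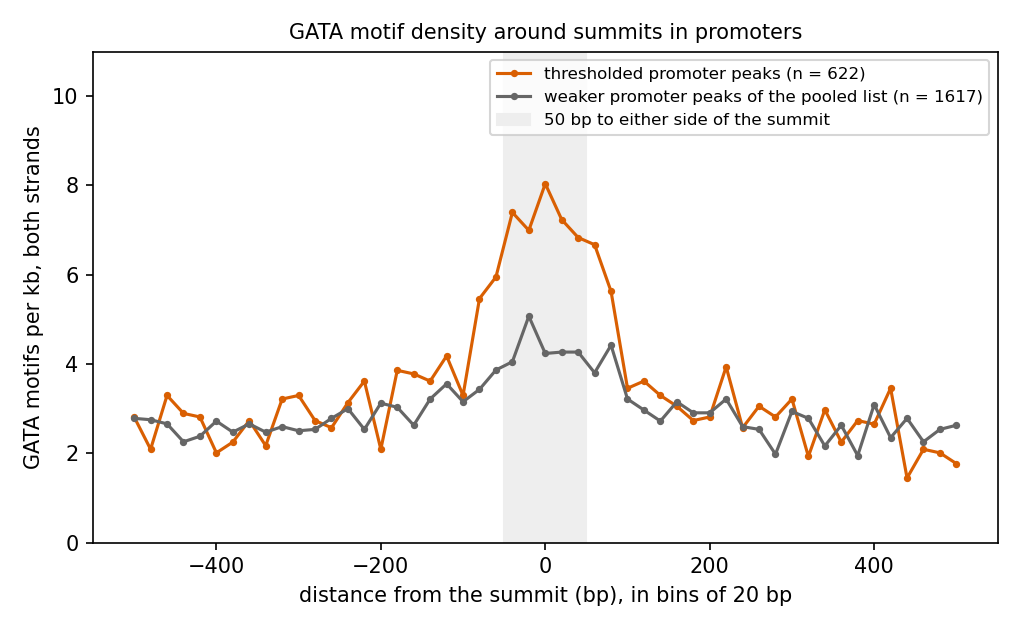
GATA motifs per kb on both strands against the distance from the summit in bins of 20 bp, for thresholded promoter peaks and for weaker promoter peaks of the pooled list. Thresholded peaks are highest at the summit with 8.04 motifs per kb, weaker ones have 4.24 there and are highest 20 bp to its left with 5.07, and both fall to about 2.5 per kb away from it.

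Within the 280 peaks the motif was nearly evenly placed. The median distance from the summit to the centre of the nearest motif was 22.5 bp, where an even spread of a single motif over the window gives 23.8 bp. Among the 167 peaks with a single motif the median was 26.5 bp, and 34 of them had it within 10 bp (20.4%, 15 to 27.1). In flanking windows with a single motif 19 of 86 had it within 10 bp (22.1%, 14.6 to 31.9). The 2 shares lay close together, with overlapping intervals. Spearman's rho between distance and signal was 0.042 across the 280 peaks, given as a description.

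TGATAA was the commonest form. Of 443 motifs in the 280 peaks, 239 read TGATAA (54%, 49.3 to 58.5), 102 AGATAA (23%), 54 AGATAG (12.2%) and 48 TGATAG (10.8%). Among all motifs of promoter windows the shares were 45.2% TGATAA, 27.1% AGATAA, 11.6% AGATAG and 16.1% TGATAG. By the nearest motif, 149 of the 280 peaks had TGATAA (53.2%, 47.4 to 59.0). The median signal hardly varied with the nearest form, at 56.2 for TGATAA, 55.4 for AGATAA, 57.4 for AGATAG and 56.9 for TGATAG.

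The base after TGATAA was distributed differently from that in promoters at large. It was G in 117 of the 239 motifs (49.0%, 42.7 to 55.3), against 16 of 61 in the windows 500 bp away (26.2%, 16.8 to 38.4) and 20.3% in all promoter windows. A, the commonest base after TGATAA in promoters at 36.3%, followed it in 13.4% in the peaks. Leaving out the 16 motifs that run into a second motif, where the G begins the next GATA, G followed 45.3% of the other 223 (38.9 to 51.8). The pattern was not limited to the thresholded peaks, since weaker promoter peaks with WGATAR had G in 141 of 314 (44.9%, 39.5 to 50.4). It was 50.4% in the 1262 strongest of replicate 1 and 52% in those of replicate 2 (51.2% ± 1.07, SD, n = 2).

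TGATAAG, sought on both strands, was present in 97 of the 280 peaks (34.6%, 29.3 to 40.4), in 9 (3.21%) and 5 (1.79%) of their left and right flanking windows and in 2.15% of all promoter windows. The peaks were chosen for the shorter motif, which TGATAAG contains, so its share within motifs, above, is the fairer comparison. The 97 peaks with TGATAAG had a median signal of 60.5 and the 183 without it 53.6. In replicate 1 the medians were 33.9 with TGATAAG and 30.9 without, and in replicate 2 they were 28.2 with TGATAAG and 25.6 without. Both replicates thus leaned the same way, within strongly overlapping ranges. Of the peaks with TGATAAG 61 were strong in both replicates (62.9%, 53.0 to 71.8), against 94 of those without (51.4%, 44.2 to 58.5).

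Many peaks held several motifs. There were 167 peaks with 1 motif, 75 with 2, 27 with 3 and 11 with more, and 106 had at least 2 that share no base (37.9%, 32.4 to 43.7). Most motifs, 5, lay in the peak of R10D12.1, and 10 peaks had 4, among them those of spe-54, cbl-1 and gana-1. The median signal was 55.4 with 1 motif, 53.6 with 2, 67.5 with 3 and 60.4 with more. Spearman's rho between the number of motifs and the signal was 0.15 in the pooled list, 0.15 in replicate 1 and 0.078 in replicate 2. These are weak relations, given as a description over the 280, 279 and 277 peaks with a value.

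Neighbouring motifs mostly pointed the same way. Of 141 neighbour pairs that shared no base, 99 had the same orientation (70.2%, 62.2 to 77.1), against 15 of 22 in the flanking windows (68.2%, 47.3 to 83.6) and 57.7% in all promoter windows. The flanking share has too few pairs to be told from either. Another 22 pairs shared bases, and the commonest single arrangement was a spacing of 5 bp on the same strand, with 19 pairs. It occurred at gana-1, hprt-1, nlp-31, Y105C5B.9 and F16G10.14 among others. In each replicate's own strongest peaks the same-orientation share was 72.3% in replicate 1 and 68.2% in replicate 2 (70.2% ± 2.86, SD, n = 2).

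The nearest motif lay on the strand opposite to the gene in 175 of 280 peaks (62.5%, 56.7 to 68). Weaker promoter peaks with WGATAR had it there in 315 of 505 (62.4%, 58.1 to 66.5), and motifs of all start windows in 55.2%. The motifs 500 bp away from the 280 peaks were on the opposite strand in 77 of 130 cases (59.2%, 50.6 to 67.3), an interval that holds both values. Signal was alike on the 2 strands, with medians of 56.6 for the opposite strand and 54.2 for the strand of the gene.

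Among other letters sought on both strands, GAGAGA, a short purine repeat, was in 79 of the 280 peaks (28.2%, 23.3 to 33.8), in 22.5% of promoter peaks without WGATAR (18.4 to 27.2) and in 5.94% of all promoter windows. CACGTG, the E-box core that helix-loop-helix proteins bind, was in 9.29% of peaks with WGATAR, 5.85% of those without and 1.75% of all promoter windows. Both were thus several times as frequent in either kind of ELT-3 peak as in promoters in general, although neither contains a GATA core. The base composition of these windows differed too, as given below. Flanking windows of the 280 peaks held GAGAGA in 5.36% on the left and 4.29% on the right. Thresholded non-promoter peaks held GAGAGA in 26.9% and CACGTG in 6.88%, and weaker promoter peaks in 15.6% and 3.53%. The difference between peaks with and without WGATAR in each replicate's own strongest peaks was 5.53 and 5.81 percentage points for GAGAGA and 3.27 and 5.13 for CACGTG. The mean was 5.67 ± 0.199 for GAGAGA and 4.2 ± 1.32 for CACGTG (SD, n = 2; exact sign-flip permutation p = 0.5, the smallest possible, for each).

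Other letters sought were less frequent. AGGTCA, the core site of nuclear receptors, was in 6.79% of peaks with WGATAR, 4.68% of those without and 2.57% of promoter windows. GGGCGG was in 6.07%, 7.89% and 1.86% in that order, so it too was several times as frequent in either kind of peak as in promoters in general. GTAAACA, read by forkhead factors, was in 1.43%, 0.585% and 1.26%, TGACTCA in 0.357%, 0.585% and 1.00%, and TGTTTGC in 1.43%, 4.39% and 1.82%. For each of the last 3, the interval in peaks with WGATAR held the share of all promoter windows.

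The peaks with WGATAR were richer in A and T. Their median G and C content within 50 bp of the summit was 39.6%, against 49.5% in promoter peaks without WGATAR and 34.7% in promoter windows at large. In each replicate's own strongest peaks the difference, with minus without, was -8.91 and -7.92 percentage points (-8.42 ± 0.700, SD, n = 2; exact sign-flip permutation p = 0.5). The motif is itself rich in A and T, and its part in this difference was not tested.

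Summits with the motif lay more often far upstream and less often between diverging genes. The median position was -229.5 bp with WGATAR and -204 bp without, relative to the nearest start, negative being upstream. The binomial interval of the median with WGATAR, -295 to -168 bp, held the median without. More than 500 bp upstream lay 84 of the 280 peaks with WGATAR (30%, 24.9 to 35.6) and 56 of the 342 without (16.4%, 12.8 to 20.7). Starts of genes that run away from each other flanked 31 peaks with WGATAR (11.1%, 7.91 to 15.3) and 98 without (28.7%, 24.1 to 33.7). Windows of several genes held 37 of the peaks with WGATAR (13.2%) and 33.6% of those without.

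In each replicate's own 1262 strongest peaks the difference, with minus without, was 8.91 and 9.71 percentage points for summits more than 500 bp upstream (9.31 ± 0.571, SD, n = 2) and -12.1 and -18.5 for diverging genes (-15.3 ± 4.56). The exact sign-flip permutation p was 0.5 for each, the smallest possible. Of the 280 summits 252 were upstream of the nearest start (90%, 85.9 to 93.0), 40 lay in an annotated exon and 4 of these in a coding exon. Without WGATAR 321 of 342 were upstream (93.9%, 90.8 to 95.9). The 31 peaks between diverging genes had a median signal of 72.1 and the other 249 of 55.8.

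**Figure D4:**
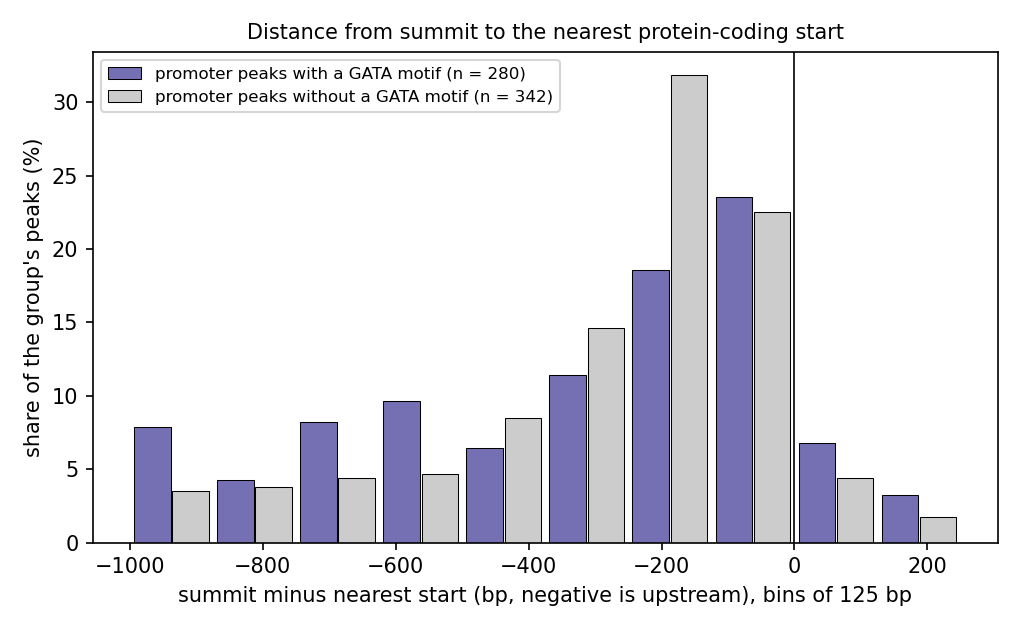
Share of promoter peaks with and without a GATA motif by the distance from the summit to the nearest protein-coding start, negative being upstream. Peaks with the motif lie more often far upstream, with 30% of them beyond 500 bp against 16.4% of those without.

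The limits of the rule cut through a continuous set. Just inside the motif limit were 7 peaks with the motif centre 47.5 bp from the summit and signals from 45.0 to 90.3 (median 64.4), among them wdr-23, a repressor of the stress factor SKN-1, at 90.3 and grsp-2 at 53.97. Just outside were ints-4 and zyg-11, at 48.5 bp, with 53.1 and 51.1. At the upstream limit ttr-41 (1000 bp, signal 68) and fbxb-58 (999 bp, 78.3) were inside and F53F1.4 (1047 bp, 53.7) and K07B1.4 (1054 bp, 52.7) outside. At the downstream limit T09B4.5 (244 bp, 56.8) and somi-1 (217 bp, 69.9) were inside and blmp-1 (390 bp, 72.4) and F49E2.5 (392 bp, 55.8) outside.

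Across chromosomes, V held 67 of the 280 peaks (23.9%, 19.3 to 29.3), against 52 of the 342 without WGATAR (15.2%, 11.8 to 19.4) and 25% of protein-coding genes. Chromosome III held 28 with WGATAR (10%, 7.01 to 14.1) and 58 without (17%, 13.4 to 21.3), beside 13.2% of protein-coding genes. Chromosome X held 51 with (18.2%, 14.1 to 23.2) and 74 without (21.6%, 17.6 to 26.3), beside 13.7% of protein-coding genes. On X both kinds of peak thus stood above the share of genes. The motif was thus in 56.3% of promoter peaks on V, 32.6% on III and 40.8% on X. In all promoter sequence it was nearly as frequent on each, at 21.8% of windows on V, 19.9% on III and 22.8% on X.

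The start windows of 306 genes held a peak with WGATAR, which is 1.53% of 19973 protein-coding genes, and those of 453 genes held a promoter peak without it, which is 2.27%. Both kinds were found at 9 genes. Of the 306, 198 have lettered names and 108 are known by sequence name alone. Since some peaks lay in windows of several genes, a number of genes are counted through a neighbour. The gene lists below were chosen with earlier results known, and their counts are read against these shares.

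In amino acid and one-carbon metabolism 9 of 62 genes had a peak with WGATAR (14.5%, 7.83 to 25.3), through 13 peaks, and 5 had one without. These were dhp-1, oatr-1, dpyd-1, mthf-1, hgo-1, gst-42, gln-3, cth-1 and gldc-1, and dpyd-1, mthf-1, oatr-1 and gln-3 had 2 peaks each. The list thus includes dhp-1 and dpyd-1 of pyrimidine breakdown. Both are counted again in the smaller groups below, as are hgo-1, gst-42 and cth-1. The spacing of the 2 summits was 549 bp at dpyd-1, 557 bp at mthf-1, 775 bp at oatr-1 and 1733 bp at gln-3. In all, 13 genes had 2 such peaks. The second peak was the weaker, with a signal of 63.7 at mthf-1 and 47.2 at oatr-1.

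Smaller pathways stood out when the named genes were read through, so the following groups were chosen after their values were seen and their counts show no preference. Of 9 genes of pyrimidine breakdown and salvage, dhp-1, dpyd-1 and cdd-1 had a peak with WGATAR. Of 20 genes of cysteine, sulphide and hypoxia response, cdo-1, semo-1, cth-1, rhy-1 and cysl-1 had one, with signals of 132.6, 75.1, 54.7, 46.8 and 44.5. RHY-1 and CYSL-1 regulate the hypoxia factor HIF-1, and cysteine dioxygenase and cystathionine gamma-lyase, the product of cth-1, remove and make cysteine. Of 12 genes of purine synthesis, salvage and breakdown hprt-1, pnp-1 and aprt-1, all of salvage or breakdown, had one, of 13 of trehalose and glycogen pygl-1, tps-1 and tps-2, of 7 of tyrosine breakdown hgo-1 and gst-42, and of 9 of ascaroside synthesis dhs-28 and daf-22, which shorten the side chains of these pheromones.

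Detoxification families had shares above the 1.53% of all genes. Peaks with WGATAR were found at 7 of 67 UDP-glucuronosyltransferase genes (10.4%, 5.15 to 20), led by ugt-13 at 66.7, ugt-58 and ugt-39, and 3 had a peak without WGATAR. Of 74 cytochrome P450 genes 6 had one (8.11%, 3.77 to 16.6), led by cyp-29A4 at 98.4, cyp-43A1 at 74.2 and cyp-14A1 at 51.3, and 1 had a peak without. Of 31 short-chain dehydrogenases 3 had one, dhs-21, dhs-28 and dhs-9, and none had a peak without. Glutathione transferases and antioxidant genes were near the share of all genes, with 2 of 78, gst-42 and gst-13. No test was made of these differences.

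Lipid and central carbon metabolism followed. Of 153 genes of fatty acid synthesis, activation and breakdown 5 had a peak with WGATAR (3.27%), led by acs-13, acl-6, a mitochondrial glycerol-3-phosphate acyltransferase gene, at 74.8, and acdh-11, an acyl-CoA dehydrogenase gene, at 73.1. Of 53 genes of glycolysis, gluconeogenesis and the TCA cycle 4 had one (7.55%, 2.97 to 17.9), and 8 had a peak without WGATAR (15.1%). Among the 4 were tkt-1 (transketolase, 77.4), pyc-1 (pyruvate carboxylase, 65.5) and gpd-2 (glyceraldehyde-3-phosphate dehydrogenase, 59.97).

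Epidermal lists had few members each, with shares above the 1.53% of all genes except in the hedgehog-related and patched-related list. Of 176 cuticle collagen genes 6 had a peak with WGATAR (3.41%, 1.57 to 7.24), led by col-62 at 74.9, col-10 at 60.7 and col-147 at 56.2, and 3 had one without. Of 68 genes of antimicrobial peptides and wound response nlp-31, nlp-34 and fipr-22 had one (4.41%, 1.51 to 12.2). Of 26 epidermis and seam transcription factors tlp-1 had a peak at 84.2 and elt-3 itself at 75.8 (7.69%, 2.14 to 24.1). In this list 4, elt-3 included, had a peak without WGATAR. Single genes were nekl-2 of 35 for moulting and cuticle assembly (2.86%) and osm-11, which takes part in osmotic resistance, of 13 (7.69%). The others were let-805, which encodes the myotactin that anchors muscle to the epidermis, of 27 (3.70%), and ptr-13 of 86 hedgehog-related and patched-related genes (1.16%). The intervals of the collagen and transcription factor lists lay above 1.53%, and those of the other lists held it. No test was made of these differences.

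At elt-3 the signal was 75.8 in the pooled list, 34.3 in replicate 1 and 40.8 in replicate 2, which placed the peak 55th of the 280. It was the only one of the 280 within 50 kb of the gene. A promoter peak without WGATAR, 627 bp upstream of the nearest start, was stronger at elt-3, with 151.0 in the pooled list, 83.4 in replicate 1 and 68.6 in replicate 2. The extra copies in the transgene cannot be told apart from the native gene at this peak.

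Among regulators, 8 of 274 nuclear hormone receptor genes had a peak with WGATAR (2.92%, 1.49 to 5.65), led by nhr-80, nhr-68, which acts in propionate breakdown, at 90.5, and nhr-31 at 71.8, and 6 had one without. Of 213 homeodomain and other transcription factor genes 7 had one, led by mml-1, a Myc and Mondo homologue, atf-7 and mab-21, and 7 had one without. Of 14 genes of the TGF-beta pathway of body size, the Schnurri homologue sma-9 (60.1) and the Smad sma-3 (46.6) had one and none had a peak without. Of 28 Wnt pathway genes the beta-catenin wrm-1 had one, and of 14 GATA factor genes elt-3 alone, which also had the only one without.

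Genes of protein synthesis and secretion were mostly reached by peaks without the motif within 50 bp of the summit. Of 80 ribosomal protein genes 7 had a peak with WGATAR (8.75%, 4.30 to 17), led by rps-15 at 100.2, rpl-7A at 81.9 and rpl-1 at 62.8, and 30 had one without (37.5%). Of 62 genes of the endoplasmic reticulum, secretion and protein folding none had a peak with WGATAR and 14 had one without (22.6%). Of 19 heterochronic genes, which time larval fates, none had one with and 6 had one without. One gene each had a peak with WGATAR among 41 translation factors (eif-3.B, 6 without), 45 respiratory chain genes (asb-2, 7 without) and 21 V-ATPase genes (vha-13, 1 without), and 2 of 75 chaperone genes, hsp-1 and hsp-60, did (6 without).

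**Figure D5:**
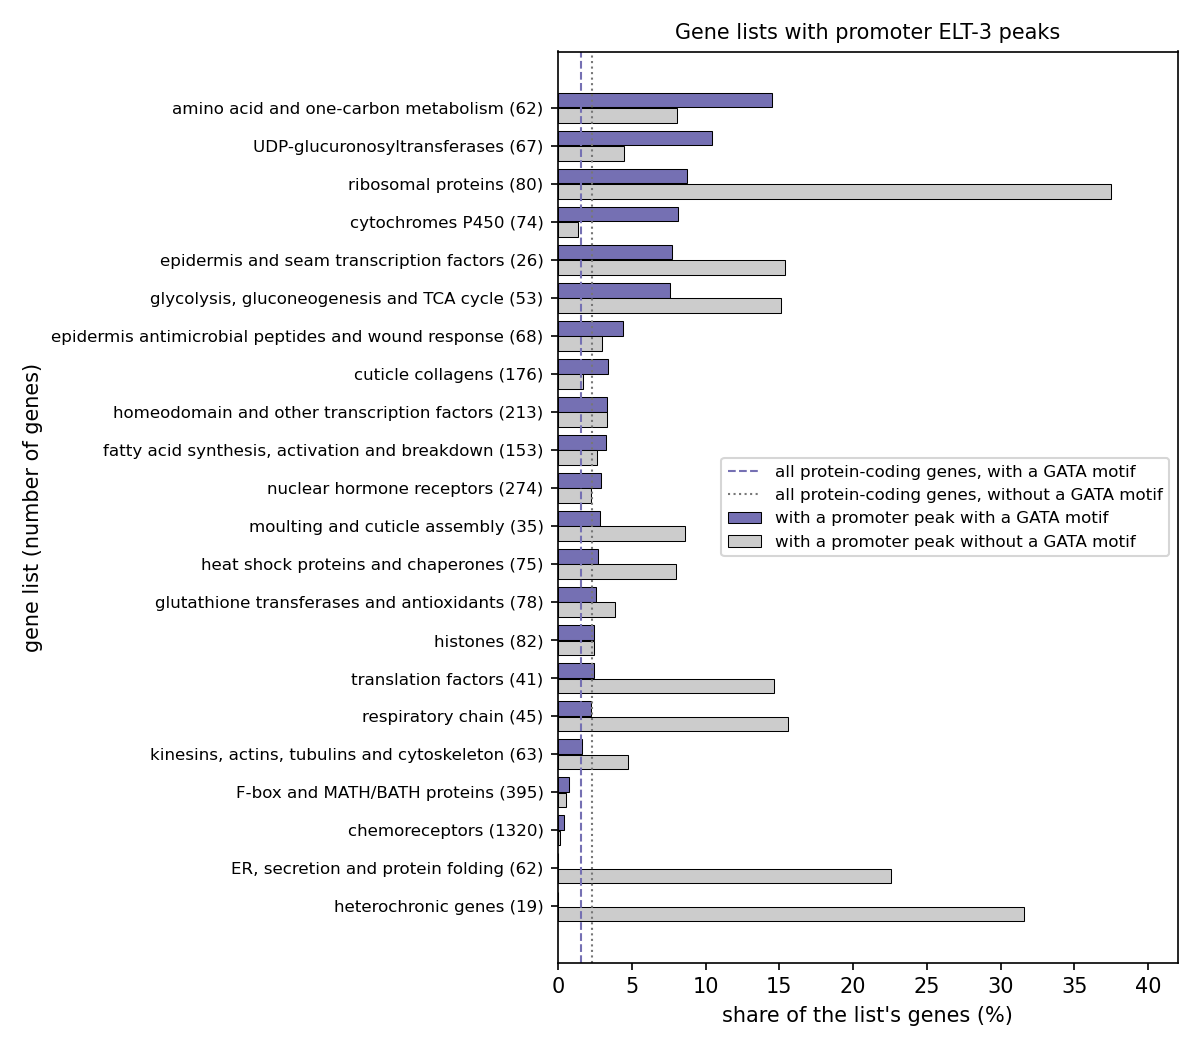
Share of the genes of each list whose start window held a promoter peak with a GATA motif or one without, for lists with at least 4 such genes over both kinds, without the lists chosen after their values were seen, with lines at the 1.53% and 2.27% of all protein-coding genes. Of the lists drawn, amino acid and one-carbon metabolism, which includes dhp-1 and dpyd-1 of pyrimidine breakdown, has the highest share with the motif at 14.5%. Ribosomal proteins have the highest without it at 37.5%.

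Markers of other tissues were not among the 306 genes. None of 29 intestine, 26 muscle, 23 pharynx, 30 neuron and 27 germline marker genes had a peak with WGATAR, and of these only 1 intestine marker had a promoter peak without it. With lists of this size the upper bounds of the shares run from 11.4% to 14.3%, so that a share near that of all genes was not detectable. None was found either among 32 tRNA synthetases, 33 proteasome, 69 mitochondrial ribosome and 29 insulin, TOR and AMPK signalling genes.

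Among large families, the chemoreceptor genes lay under the 1.53% of all genes, and the intervals of the other two families held it. Peaks with WGATAR reached 5 of 1320 chemoreceptor genes (0.379%, 0.162 to 0.884), among them srd-65, str-176 and str-7, 1 of 240 C-type lectins (0.0736 to 2.32%), clec-126, and 3 of 395 F-box and MATH or BATH genes (0.259 to 2.21%), fbxa-38, fbxb-58 and fbxb-96. The same peak at 82.9 served srd-65 and fbxa-38, and that at 54.7 served str-7 and cth-1, so neighbours account for a share of these counts. Of 82 histone genes his-67 and his-68 shared 1 peak (2.44%, 0.671 to 8.46). Of 63 cytoskeleton genes act-2 had one (1.59%, 0.281 to 8.46), and of 164 solute carriers and transporters nhx-1 (0.610%, 0.108 to 3.37). Each of these intervals held the 1.53% of all genes.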

How the data were processed

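ELT-3 ChIP-seq peaks were taken from 2 biological replicates of 1 group. The authors made a list of peaks with background for each replicate and for the pooled alignments, set against control alignments, and thresholded the pooled list by the irreproducible discovery rate between lists, per the file headers and lists deposited with them. The control experiment was not used here, and the sources used here name no aligner, caller or version. The deposited signal of each peak is the authors' own strength value, of unstated scale, and was used to describe, rank and filter within a list. Summits were taken from the peak position offset, another value the authors deposited. Coordinates are 1-based ce11 as deposited; starts, exons and gene names came from Ensembl release 115 and sequences from RefSeq, both WBcel235. No column of another sample was present.

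A replicate's value for a peak came from the strongest peak of its list that overlapped by at least 1 bp. The background of promoter sequence was every start window cut into 260907 pieces as long as the window around a summit. Shares have 95% Wilson intervals, and medians were compared with binomial intervals of the order statistics. The only test was the exact sign-flip permutation over replicates. Named genes are those of the 20 strongest peaks, up to 3 of each list, the 3 weakest, the peaks beside each limit of the rule, and the 3 with most motifs and the 3 with the largest rank difference. Other names are given as chosen after their values were seen or as members of a count or arrangement. The members, lists and rules were chosen with earlier results of these data known. Motif finding, start windows and overlaps were tested on simulated data. Python 3.11.15, numpy 2.4.6, scipy 1.17.1 and matplotlib 3.10.9 were used.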

Additional observations from a re-analysis of the deposited data

How the results depend on the processing

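Of 129 recalculations over 12 results and 14 settings, 27 moved beyond the interval of the reported value or beyond 1.5 times the reported count, 2 rank differences changed sign, and 100 did neither. The rank difference has no interval and was judged by sign alone, and where its sign held it ran from -0.368 (narrow promoter) to -0.0016 (motif within 25 bp). None of the recalculations from 1 replicate's own strongest peaks (without replicate 1 or 2) moved beyond it, nor did removal of the peak nearest elt-3 (a 50 kb limit), an alternative chosen after seeing the data. Seeking the motif within 25 bp gave 144 peaks, 23.2% of promoter peaks, 162 genes, a motif distance of 7.5 bp, several motifs in 27.8% and a G and C content of 38.1%. Within 100 bp the share was 61.1%, the distance 28.5 bp, several motifs 61.6% and G and C 41.6%, and the rank difference turned to 0.174 percentage points. TGATAA alone gave 185 peaks, 29.7%, 201 genes and several motifs in 25.9%. NGATAR gave 51.6%, with TGATAA nearest in 43.0%. A promoter of 500 bp upstream to 100 bp downstream gave 40.1%, 202 genes and a median position of -148 bp, one of 2000 bp upstream to 500 bp downstream gave -417 bp, and starts of all gene types gave -164 bp and 556 genes. The stronger part of the list had 138 peaks, 150 genes, a median signal of 73.1, 90.6% strong in both and a rank difference of 0.0033. Counting only the strongest 631 of each replicate left 28.2% strong in both. Most of these shifts follow from the construction, and other causes were not tested. Signal, rank difference and the share strong in both were not computed without a replicate, nor the share of TGATAA with TGATAA alone. No paired analysis was possible because there was 1 group. Read depth is unknown, and 2 replicates limit every comparison over libraries.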
